A study of Mus musculus with 19 samples.

Results

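Genes whose products carry out the suppressive and tissue repair work of regulatory T cells (Tregs) were followed across sorted mouse Treg subsets after burn injury. The 8 genes were taken by symbol, listed in the count table as IL10, EBI3, FGL2, GZMB, AREG, PENK, TGFB1 and LGALS1. The choice was made with earlier results of these data known. Here the genes are written as the mouse genes Il10, Ebi3, Fgl2, Gzmb, Areg, Penk, Tgfb1 and Lgals1. They are 8 of the 24982 genes in the table, and 8 of 8 were among the 11464 genes that passed the filter on low counts. Bulk RNA-seq measured 4 groups of FoxP3-GFP+ CD4+ T cells, sorted as CD44high or CD44low from the injury-site draining lymph nodes of Foxp3DTR mice: CD44high sham (n = 4 libraries), CD44high burn (n = 4), CD44low sham (n = 5) and CD44low burn (n = 6). All groups carried the Foxp3DTR allele, in which the Foxp3 locus drives a diphtheria toxin receptor and GFP, and the study's methods give mice of 8 to 16 weeks and RNA from 50000 sorted cells a sample at day 7. Burned mice had the shaved back immersed in hot water under ketamine and xylazine with buprenorphine, while sham mice went through the same steps, drugs and fluid included, with water at room temperature. The labels do not say whether a library came from 1 mouse or from pooled mice, so the p-values measure the spread between libraries. They also do not say how the CD44low burn libraries numbered 1_2, 4_2 and 5_2 relate to those numbered 1, 2 and 5.

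Tregs restrain other immune cells by several routes. They secrete cytokines (IL-10, the EBI3-containing dimers, TGF-beta), release the fibrinogen-like protein FGL2 and the carbohydrate-binding protein galectin-1, and can kill target cells with granzymes. Tregs that settle in tissues, most of them antigen-experienced cells with high surface CD44, are also known for repair factors such as the EGF receptor ligand amphiregulin and the opioid peptide precursor proenkephalin. Lymph nodes hold both such effector Tregs and resting CD44low Tregs that recirculate.

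Library totals ranged from 5582234 to 9433610 counts. Of the 9 Treg and T cell identity genes, 8 were in the table and all 8 were measured in every group, with Foxp3 at 87.8 ± 11.0 CPM (a gene's counts scaled to the library's TMM-adjusted total, mean ± SD, n = 4) in CD44high sham and 115 ± 17.3 CPM (n = 5) in CD44low sham. The transcript of the sorting marker, Cd44, was at 595 ± 37.5 CPM in CD44high sham and 133 ± 16.1 CPM in CD44low sham, as the gate's labels state. In these bulk samples fewer cells of a type and less RNA per cell cannot be told apart.

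The 8 genes are protein-coding and lie apart from each other in the GENCODE annotation of GRCm38. Those of the cytokines are Il10 (chr1:131019845-131024974), Ebi3 (chr17:55952640-55957022) and Tgfb1 (chr7:25687002-25705077), all on the plus strand. Fgl2 (chr5:21372642-21378374, plus), Gzmb (chr14:56258838-56262260, minus) and Lgals1 (chr15:78926725-78930465, plus) code for the other suppressive proteins, and Areg (chr5:91139599-91148432, plus) and Penk (chr4:4133531-4138819, minus) for the repair mediators.

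Promoter windows are shown for the 3 genes whose level changed most after injury, since they let the reader see which common motifs lie near their starts. Each is the 250 bases before the RefSeq start (GRCm38.p6, plus strand), with searched motifs in capitals.
Fgl2, chr5:21372423-21372672: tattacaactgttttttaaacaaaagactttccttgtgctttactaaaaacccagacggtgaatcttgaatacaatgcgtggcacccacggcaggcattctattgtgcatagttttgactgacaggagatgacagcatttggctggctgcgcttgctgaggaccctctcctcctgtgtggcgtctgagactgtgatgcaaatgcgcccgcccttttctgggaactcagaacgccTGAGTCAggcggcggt
Areg, chr5:91139349-91139598: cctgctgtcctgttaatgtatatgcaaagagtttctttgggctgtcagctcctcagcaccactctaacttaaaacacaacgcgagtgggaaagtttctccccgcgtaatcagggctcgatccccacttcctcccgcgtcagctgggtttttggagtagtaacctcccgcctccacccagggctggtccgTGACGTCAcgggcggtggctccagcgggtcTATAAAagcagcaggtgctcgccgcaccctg
Ebi3, chr17:55952373-55952622: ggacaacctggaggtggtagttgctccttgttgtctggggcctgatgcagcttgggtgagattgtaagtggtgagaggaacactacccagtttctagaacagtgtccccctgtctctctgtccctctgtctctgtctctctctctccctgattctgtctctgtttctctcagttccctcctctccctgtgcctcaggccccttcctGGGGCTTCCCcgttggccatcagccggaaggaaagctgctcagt
The capitals mark an AP-1 site (TGAGTCA) 16 to 10 bases before the start of Fgl2, a cAMP response element (TGACGTCA) 61 to 54 bases and a TATA box (TATAAA) 31 to 26 bases before that of Areg, and a match to the NF-kB motif 44 to 35 bases before that of Ebi3. On either strand, such windows held the AP-1 letters TGANTCA in 6.75%, TGACGTCA in 1.55%, TATAAA in 12.4% and the NF-kB motif in 7.25% of 32851 RefSeq promoters. The forkhead letters TGTTTAC (3.17% of windows) were in none of the 3 windows, nor were the RUNX letters TGTGGTT (4.40% of windows). No searched motif overlapped another in these windows, and a match describes the sequence only. The table of promoters held 5 of the 8 genes, without Penk, Il10 and Lgals1.

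The first question was which mediators differed between the sorted subsets. Without injury 7 of the 8 genes were higher in CD44high than in CD44low Tregs at an adjusted p under 0.05 (quasi-likelihood test of edgeR, p-values adjusted by Benjamini-Hochberg over all genes tested), where 24.7% of all tested genes were higher and 21.3% lower. None of the 8 was lower. For the same 7 genes every CD44high library lay above every CD44low library, as it did for 21.9% of all genes. After injury 7 of 8 were again higher, where 20.1% of all genes were higher and 17.2% lower, and 7 of 8 had no overlap, against 15.6% of all genes. Tgfb1 was the exception in both states. The median log2 difference of the 8 genes was 3.36 in sham and 2.66 in burn, where that of all tested genes was 0.01 in sham and near 0 in burn.

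**Figure D1:**
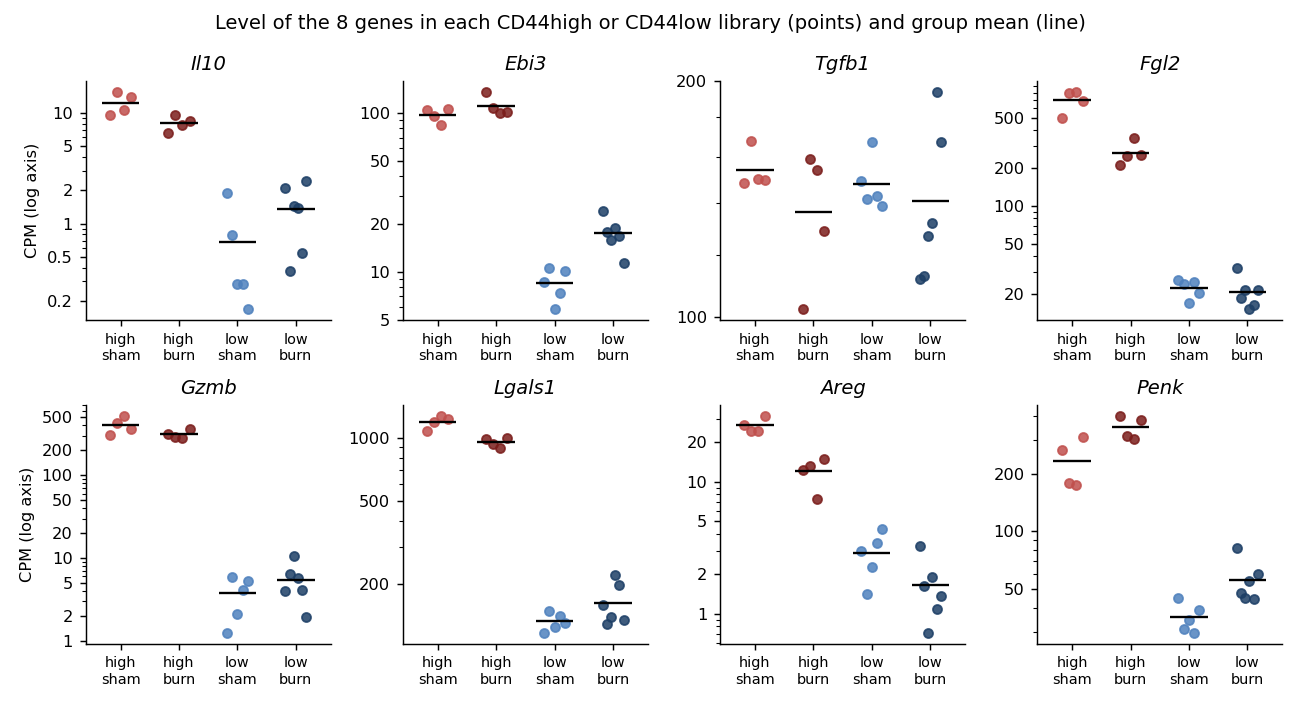
CPM on a log axis (each panel has its own range) for the 8 genes in the 4 CD44high sham, 4 CD44high burn, 5 CD44low sham and 6 CD44low burn libraries, with each point a library and each line a group mean. For every gene but Tgfb1 the CD44high points lie above all CD44low points, and Tgfb1 spans 102 to 194 CPM with the groups intermixed.

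Among the cytokine genes, Il10 codes for a cytokine that dampens antigen-presenting cells and inflammation. Its CPM in the CD44high sham libraries were 9.45, 15.4, 10.7 and 13.8, and in the CD44low sham libraries 1.88, 0.788, 0.284, 0.287 and 0.169. These 5 libraries held 22 Il10 counts in all (exact Poisson 95% interval 13.8 to 33.3, counting error only), and 4 of them had under 10 counts, so the CD44low level rests on very few reads. CD44high burn libraries had 6.51, 9.53, 7.76 and 8.38 CPM, whereas CD44low burn libraries lay between 0.374 and 2.40 with a median of 1.40 CPM and 54 counts in all, 3 of 6 libraries having under 10. The subsets did not overlap in either state. The log2 difference between subsets was 4.15 (SE 0.486, adjusted p = 2.18e-07, edgeR) in sham and 2.55 (SE 0.418, adjusted p = 3.66e-05) in burn.

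Ebi3 codes for the shared chain of the cytokines IL-27 and IL-35. It was at 104, 95.5, 84.1 and 106 CPM in CD44high sham and at 8.60, 10.6, 5.82, 7.33 and 10.1 CPM in CD44low sham. After burn the CD44high libraries had 136, 107, 99.5 and 102 CPM, and the CD44low libraries 11.4 to 24.1 with a median of 17.3 CPM. Every CD44high library was above every CD44low library. The difference was 11.5-fold in sham (log2 3.53, SE 0.186, adjusted p = 2.68e-13, edgeR) and 6.36-fold in burn (log2 2.67, SE 0.164, adjusted p = 5.87e-12). Ebi3 shares 270 exon bases with the antisense gene Gm16712, whose counts were 33.0% to 64.7% of those of Ebi3 in each library. The cDNA kit named in the labels keeps no strand and no strand setting for counting is given, so reads from the shared bases cannot be told apart.

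Tgfb1, the gene of TGF-beta 1, which is made in a latent form and activated outside the cell, did not follow the other genes. It was at 154 ± 9.41 CPM (SD, n = 4) in CD44high sham, 148 ± 11.6 (n = 5) in CD44low sham, 136 ± 26.1 (n = 4) in CD44high burn and 141 ± 32.9 CPM (n = 6) in CD44low burn. The groups overlapped in both states. The log2 difference between subsets was 0.06 in sham (95% interval -0.25 to 0.36, adjusted p = 0.771, edgeR) and -0.05 in burn (95% interval -0.34 to 0.25, adjusted p = 0.821). The sign in burn turned without the libraries 1_2, 4_2 and 5_2, with a value of 0.22.

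Fgl2, whose secreted product binds Fc receptors, was at 505, 799, 810.5 and 683 CPM in CD44high sham. In CD44low sham it was at 25.8, 24.3, 16.9, 24.9 and 20.4 CPM. The CD44high level was 31.1-fold higher (log2 4.96, SE 0.203, adjusted p = 3.90e-15, edgeR), with no overlap. After burn the difference was 12.7-fold (log2 3.67, SE 0.182, adjusted p = 1.94e-13). Fgl2 lies within the span of Ccdc146 on the opposite strand but shares no exon base with it.

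Gzmb codes for granzyme B, the protease that lymphocytes deliver to target cells through perforin pores. It had the widest gap of the 8 genes: 307, 435, 527 and 363 CPM in CD44high sham against 1.25, 5.99, 2.13, 4.17 and 5.23 CPM in CD44low sham, a 109-fold difference (log2 6.77, SE 0.325, adjusted p = 4.73e-14, edgeR). The 5 CD44low sham libraries held 121 counts in all, with 1 library under 10. In burn the CD44high libraries had 314, 288, 281 and 366 CPM and the CD44low libraries 1.95 to 10.7 with a median of 4.91 CPM, a 56.0-fold difference (log2 5.81, SE 0.285, adjusted p = 1.74e-13). Neither state showed any overlap.

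Lgals1, the gene of galectin-1, a lectin that binds glycoproteins on T cells, had the highest level of the 8 per kilobase of exon in each group. CD44high sham libraries had 1079, 1194, 1278 and 1234 CPM and CD44low sham libraries 117, 149, 125, 141 and 130.2 CPM, without overlap. The difference was 9.03-fold in sham (log2 3.17, SE 0.137, adjusted p = 8.37e-15, edgeR) and 5.85-fold in burn (log2 2.55, SE 0.125, adjusted p = 1.74e-13). GENCODE names 2 Lgals1 pseudogenes that the table does not list, and their part in these counts was not tested.

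Both repair genes were higher in CD44high cells as well. Areg, the gene of amphiregulin, was at 26.7, 24.2, 24.2 and 31.7 CPM in CD44high sham and 2.97, 1.42, 2.27, 3.45 and 4.39 CPM in CD44low sham, where it had 94 counts in all and 1 library under 10. The subsets differed 9.21-fold in sham (log2 3.20, SE 0.311, adjusted p = 1.10e-08, edgeR) and 7.13-fold in burn (log2 2.83, SE 0.311, adjusted p = 1.09e-07), with no overlap in either. Penk, the precursor of the enkephalins, was at 266, 179, 174 and 310.2 CPM in CD44high sham and 44.9, 31.0, 34.6, 29.6 and 38.8 CPM in CD44low sham. It differed 6.49-fold in sham (log2 2.70, SE 0.191, adjusted p = 4.73e-11) and 6.26-fold in burn (log2 2.65, SE 0.176, adjusted p = 2.59e-11). The group with the highest Penk level was CD44high burn, at 400.5, 315, 302 and 379 CPM. It shares 233 exon bases with A830012C17Rik on the opposite strand, a gene not in the table.

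Levels were set in order per kilobase of exon, since longer transcripts collect more reads. Lgals1 came first in every group, at 1325 ± 94.3 CPM per kilobase (SD, n = 4) in CD44high sham and 147 ± 14.1 (n = 5) in CD44low sham. Il10 came last in every group, at 9.41 ± 2.10 and 0.520 ± 0.542 CPM per kilobase in the same 2 groups. In CD44high sham the order between them was Gzmb (284), Fgl2 (185), Penk (142), Ebi3 (84.4), Tgfb1 (30.5) and Areg (22.0 CPM per kilobase), and neighbours overlapped only between Gzmb and Fgl2 and between Fgl2 and Penk. In CD44high burn Fgl2 (70.2) stood below Penk (214) and Ebi3 (96.2 CPM per kilobase), and it overlapped Ebi3. In CD44low sham Tgfb1 (29.3) stood second, overlapping Penk (21.9 CPM per kilobase), and Gzmb (2.61) stood sixth, overlapping Areg (2.39). In CD44low burn Penk (34.1) and Tgfb1 (27.9) overlapped, as did each neighbour from Fgl2 (5.51) down to Il10 (1.04 CPM per kilobase). With coding length in place of exon length, Lgals1 stayed first, but Il10 (2.56) passed Areg (2.22 CPM per kilobase) in CD44low burn, Penk passed Gzmb in CD44high burn, Fgl2 passed Ebi3 in CD44high burn and CD44low sham, and Tgfb1 passed Penk in CD44low burn.

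**Figure D2:**
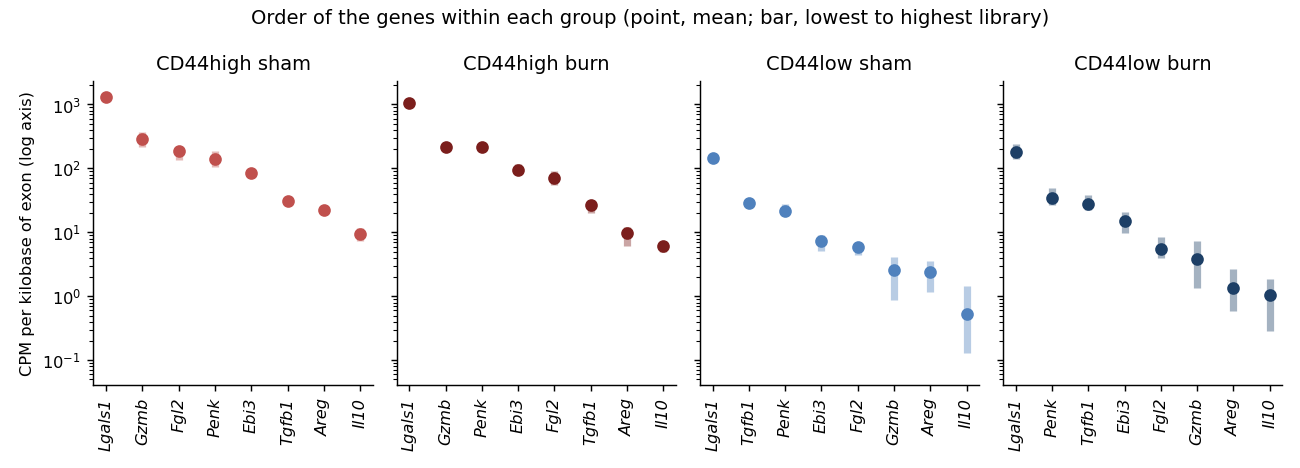
Level per kilobase of exon (CPM per kilobase, log axis) of the 8 genes within each of the 4 groups, from highest to lowest mean, with the point at the mean and the bar from the lowest to the highest library. Lgals1 leads every group and Il10 ends every group, while Gzmb falls from second in CD44high to sixth in CD44low.

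Some markers of other cells differed between the CD44 subsets. Of all tested genes, 24.7% were higher and 21.3% lower in CD44high sham than in CD44low sham. In burn these shares were 20.1% and 17.2%. The summed level of 8 macrophage and dendritic cell markers was 88.8 to 163 CPM in CD44high sham, 105 to 244 in CD44high burn, 20.6 to 41.0 in CD44low sham and 34.3 to 149 CPM in CD44low burn, and 7 of the 7 tested were higher in CD44high sham than in CD44low sham (3 of 7 in burn). Of their defining genes Clec9a had no count in CD44low sham. Lyz2, a macrophage lysozyme, led them with 75.2 ± 32.1 CPM in CD44high sham. The 7 CD8 T cell and NK cell markers summed to 46.5 to 70.4 CPM in CD44high sham and 52.2 to 71.5 CPM in CD44low sham. Of the 6 tested 1 was higher, Klrb1c (log2 3.63, adjusted p = 0.000125, edgeR), and 0 were lower. The 8 B cell markers summed to 106 to 227 CPM and 88.5 to 173 CPM in the same groups, with 1 of 8 higher. For these markers and those of CD8 T and NK cells, the part called higher was below the share of all genes. Plasma cell markers summed to 220.5 to 265 CPM and 167 to 215 CPM, with 2 of 3 tested higher, Xbp1 and Sdc1, and Tnfrsf17 had no count. Nearly all of these sums was Xbp1, at 232 ± 18.9 CPM in CD44high sham and 186 ± 18.5 CPM in CD44low sham. Sdc1 was at 2.74 ± 1.38 and 0.210 ± 0.289 CPM. Stromal markers summed to 60.4 to 74.2 CPM and 187 to 219 CPM, where Col1a1 was higher in CD44high and Pecam1, which T cells also express, was lower, and Pdpn had no count. Nearly all of the stromal sums was Pecam1, at 60.8 ± 6.79 CPM in CD44high sham and 202 ± 14.0 CPM in CD44low sham. Col1a1 was at 2.36 ± 0.736 and 0.0568 ± 0.127 CPM. The part of such cells in the CD44 differences was not tested.

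**Figure D3:**
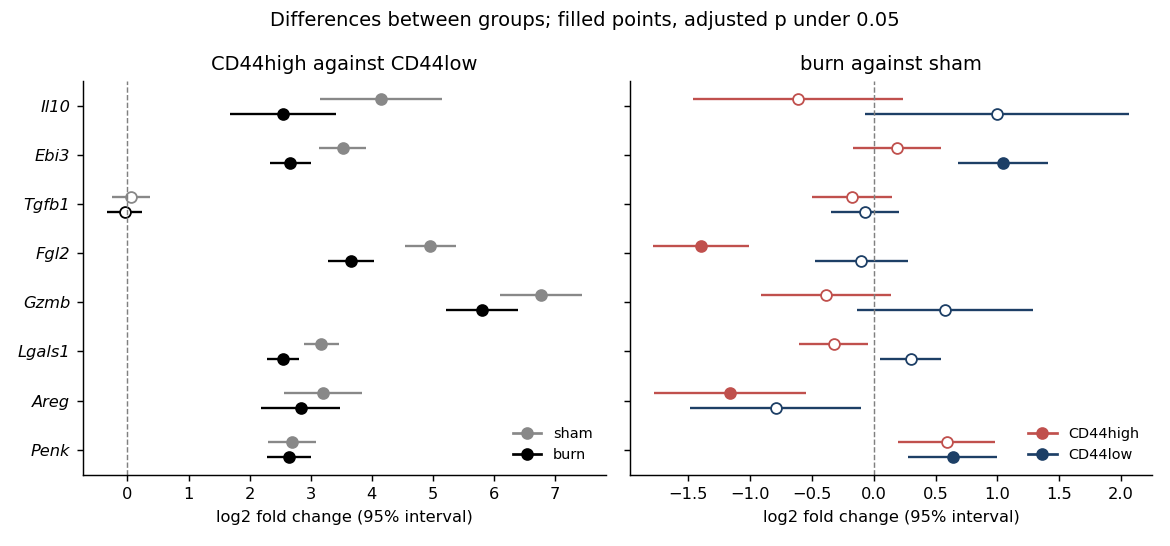
Fitted log2 fold changes with 95% intervals for the 8 genes, CD44high against CD44low in sham and in burn (left) and burn against sham in each subset (right). Filled points have an adjusted p under 0.05. On the left only the Tgfb1 intervals span 0, and on the right the filled points are Fgl2 and Areg in CD44high and Ebi3 and Penk in CD44low.

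The second question was what injury did to these genes in CD44high Tregs. Fgl2 and Areg fell, and none of the 8 rose, where 1.33% of all tested genes fell and 1.06% rose. DESeq2 also called 0 of the 8 higher, and 4 of 8 (Fgl2, Areg, Lgals1 and Penk) had an unadjusted p under 0.05 in edgeR, beside 15.1% of all genes. The libraries of burn lay below all those of sham for 3 genes, Fgl2, Areg and Lgals1, against 7.34% of all genes. The median log2 change of the 8 was -0.36, beside -0.02 for all tested genes.

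Fgl2 went from 505, 799, 810.5 and 683 CPM in sham to 211, 251, 346 and 256 CPM in burn, so that the highest burn library was below the lowest sham library. The level after burn was 0.380 of that in sham (log2 -1.40, SE 0.188, adjusted p = 0.000137, edgeR), the 11th smallest p of all genes in this comparison. It fell under each of the 29 alternatives, with log2 values of -1.55 to -1.29 and adjusted p up to 0.00112. Macrophage and dendritic cell markers, cells that can also express Fgl2, summed to 105 to 244 CPM in burn and 88.8 to 163 CPM in sham, with 0 of 7 tested called in either direction. From sham to burn, the means of Lyz2 (75.2 to 119 CPM), Cd68 (5.47 to 7.48) and Adgre1 (1.68 to 2.39) went up. Those of Siglech (17.3 to 11.4 CPM), Csf1r (11.6 to 11.0), Xcr1 (6.59 to 3.81), Itgax (3.14 to 0.971) and Clec9a (0.633 to 0.253) went down. Neutrophil markers summed to 2.12 to 20.2 CPM in burn and 0 to 0.500 in sham. Of the 2 tested 1, S100a9, was called higher (log2 6.13, adjusted p = 0.0496, edgeR), with 1 count in sham and 140 in burn. The part of all these cells in the fall of Fgl2 was not tested.

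Areg went from 26.7, 24.2, 24.2 and 31.7 CPM to 12.3, 13.2, 7.44 and 14.8 CPM, again with no overlap. Its level after burn was 0.447 of that in sham (log2 -1.16, SE 0.297, adjusted p = 0.0354, edgeR). This call was lost whenever any 1 of the 8 CD44high libraries was left out, with adjusted p of 0.0613 to 0.122 and log2 values of -1.28 to -0.99. Markers of basophils and mast cells, which also make amphiregulin, summed to a median of 6.03 CPM in CD44high sham and 8.26 CPM in CD44high burn. Of the 2 tested Cpa3 rose (log2 3.44, adjusted p = 0.0364), and Mcpt8, Fcer1a, Ms4a2 and Gata2 had no count in CD44high sham. Their part in the fall of Areg was not tested.

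The other 6 genes did not pass the test. Lgals1 was at 991, 933, 895 and 1002 CPM in burn, below each of the 4 sham libraries, with a log2 change of -0.33 (95% interval -0.61 to -0.04, adjusted p = 0.244, edgeR), and it passed without the libraries 1_2, 4_2 and 5_2 (adjusted p = 0.0343) or with the CD44high groups fitted alone (0.0487). Penk had a log2 change of 0.59 (95% interval 0.20 to 0.98, adjusted p = 0.112), and 3 of 4 burn libraries were above all sham libraries. Penk passed with the CD44high groups fitted alone (adjusted p = 0.0437). Il10 had a log2 change of -0.62 (95% interval -1.47 to 0.24), Gzmb of -0.39 (-0.91 to 0.14), Ebi3 of 0.19 (-0.17 to 0.54) and Tgfb1 of -0.18 (-0.50 to 0.14), with adjusted p of 0.519 to 0.667.

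In CD44low Tregs Ebi3 and Penk rose after injury and none of the 8 fell, where 4.24% of all tested genes rose and 3.36% fell. DESeq2 also called 0 of the 8 lower, and 4 of 8 (Ebi3, Penk, Lgals1 and Areg) had an unadjusted p under 0.05 in edgeR, beside 26.0% of all genes. Ebi3 alone had no overlap between burn and sham, against 2.39% of all genes higher without overlap. The median log2 change of the 8 was 0.44, beside 0.01 for all genes.

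Ebi3 went from 5.82 to 10.6 CPM in the 5 sham libraries (median 8.60) to 11.4 to 24.1 CPM in the 6 burn libraries (median 17.3), a 2.06-fold rise (log2 1.04, SE 0.176, adjusted p = 0.00135, edgeR). With the burn libraries 1, 2 and 5 alone the log2 change was 1.19 (adjusted p = 0.000382), and with 1_2, 4_2 and 5_2 alone it was 0.90 (adjusted p = 0.0161). Leaving out any 1 library gave 0.95 to 1.16. The antisense gene Gm16712 rose too, by a log2 of 0.80 (SE 0.174, adjusted p = 0.00823). The absolute level stayed low, at 17.4 ± 4.14 CPM (SD, n = 6) beside 97.4 ± 10.1 CPM (n = 4) in CD44high sham.

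Penk was at 44.9, 31.0, 34.6, 29.6 and 38.8 CPM in CD44low sham and at 44.2 to 82.1 CPM (median 51.4) in CD44low burn, where 5 of 6 libraries were above every sham library. The rise was 1.56-fold (log2 0.64, SE 0.174, adjusted p = 0.0278, edgeR). It held with libraries 1, 2 and 5 alone (log2 0.70, adjusted p = 0.0264) and not with 1_2, 4_2 and 5_2 alone (log2 0.60, adjusted p = 0.0728). The call was also lost without CD44low sham library 2 (adjusted p = 0.0574), CD44low sham library 4 (0.0577) or CD44low burn library 1 (0.0605).

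The remaining genes did not pass in CD44low cells. Il10 had a log2 change of 0.99 (95% interval -0.07 to 2.06, adjusted p = 0.224, edgeR), on 22 counts in sham and 54 in burn, and its interval is the widest of the 8. CD44low sham library 1 held 12 of the 22 counts, and without it the log2 change was 1.82 (adjusted p = 0.0533). Areg had a log2 change of -0.79 (95% interval -1.48 to -0.11, adjusted p = 0.133), on 94 counts in sham and 66 in burn, with 3 of the 6 burn libraries under 10 counts. Gzmb had 0.58 (95% interval -0.14 to 1.29, adjusted p = 0.299), with 0.93 from libraries 1, 2 and 5 alone and 0.07 from 1_2, 4_2 and 5_2 alone. Lgals1 had 0.30 (95% interval 0.05 to 0.55, adjusted p = 0.116), and the same sets of burn libraries gave 0.10 (adjusted p = 0.523) and 0.50 (adjusted p = 0.0277). It also passed without library 5_2 alone (0.37, adjusted p = 0.0378). Fgl2 had -0.10 (95% interval -0.47 to 0.27) and Tgfb1 -0.07 (-0.35 to 0.20). Tgfb1 was at 112, 113 and 127 CPM in libraries 1, 2 and 5 and at 132, 194 and 167 CPM in 1_2, 4_2 and 5_2, which did not overlap.

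Some markers of other cells also rose with injury in CD44low cells. Macrophage and dendritic cell markers summed to 34.3 to 149 CPM in burn, highest in library 5. In CD44low sham they summed to 20.6 to 41.0 CPM, and 1 of 7 tested, Lyz2, rose, as did S100a9 of the neutrophil and Klrb1c of the NK cell markers. Neutrophil markers summed to 0 to 30.4 CPM in burn and 0 to 1.69 CPM in sham. Their part in the rises of Ebi3 and Penk was not tested.

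The third question was whether injury acted differently in the subsets, tested as the injury effect in CD44high minus that in CD44low. Of the 8 genes 1 passed, Fgl2, with a log2 difference of -1.29 (SE 0.259, adjusted p = 0.0155, edgeR), where 0.454% of all tested genes were lower and 0.192% higher. None was called higher by edgeR or DESeq2, and 5 of 8 had an unadjusted p under 0.05 in edgeR, beside 10.9% of all genes. The log2 changes of Fgl2 behind this were -1.40 in CD44high and -0.10 in CD44low. The difference passed under each of the 28 alternatives, with log2 values of -1.49 to -1.07 and adjusted p up to 0.0448. With libraries 1, 2 and 5 as the CD44low burn group it was -1.49 (adjusted p = 0.00340), and with 1_2, 4_2 and 5_2 it was -1.07 (adjusted p = 0.0440).

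For the other 7 genes no difference was shown by edgeR with all libraries. The estimates were -1.61 (95% interval -2.97 to -0.24, adjusted p = 0.355, edgeR) for Il10, -0.96 (-1.85 to -0.07, adjusted p = 0.404) for Gzmb, -0.86 (-1.36 to -0.35, adjusted p = 0.119) for Ebi3 and -0.62 (-0.999 to -0.25, adjusted p = 0.125) for Lgals1. Without CD44low sham library 1 the value of Il10 was -2.42 (adjusted p = 0.0901). Ebi3 passed with DESeq2 (adjusted p = 0.035), without the libraries 1_2, 4_2 and 5_2 (0.0274) and without library 5_2 alone (0.0402). Lgals1 passed with DESeq2 (0.039) and without libraries 1, 2 and 5 (0.0164). Areg had -0.37 (95% interval -1.31 to 0.57), Tgfb1 -0.11 (-0.53 to 0.32) and Penk -0.05 (-0.58 to 0.48). The median of the 8 was -0.74, beside -0.03 for all tested genes, and 8 of 8 estimates were below 0. That of Penk kept its sign under 19 of 28 alternatives and that of Tgfb1 under 27 of 28.

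**Figure D4:**
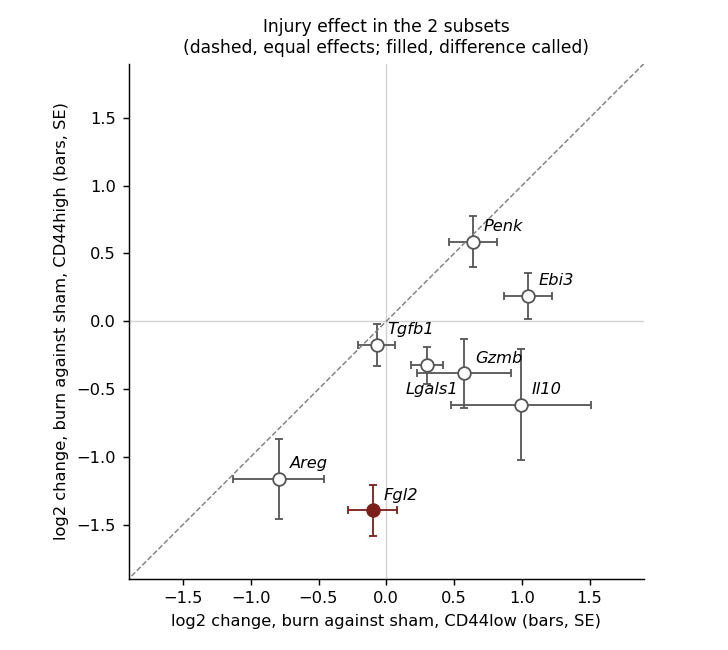
Log2 change of burn against sham in CD44low Tregs (horizontal) and in CD44high Tregs (vertical) for the 8 genes, with bars of 1 SE, a dashed line where both effects are equal and a filled point where the difference between them had an adjusted p under 0.05. All 8 points lie below the dashed line, and Fgl2, at -0.10 and -1.40, is the filled point.

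Partners of these genes were read from lists of their pathways. The counts of each list stand beside the shares over all tested genes, which were 24.7% higher and 21.3% lower in CD44high against CD44low sham, 20.1% and 17.2% in CD44high against CD44low burn, 1.06% and 1.33% after injury in CD44high and 4.24% and 3.36% after injury in CD44low. Of the 10 IL-10 and IL-12 family subunits, only Il10 and Ebi3 passed the filter. Il12a, which pairs with EBI3 as IL-35, had 6, 3, 5 and 3 counts in CD44high sham, CD44high burn, CD44low sham and CD44low burn, and Il27, which pairs with it as IL-27, had 0, 0, 2 and 2 counts. Both were too low to compare. Among receptors for IL-10, IL-35 and TGF-beta 3 of 9 tested were higher in CD44high sham, led by Il12rb1 (log2 2.00, adjusted p = 8.31e-11, edgeR) and Il10ra (log2 1.497, adjusted p = 8.40e-08), and 3 were lower, among them the TGF-beta co-receptor Tgfbr3 (log2 -2.26, adjusted p = 3.47e-06). These counts in either direction lie near the shares over all genes. In burn 2 were higher and 3 lower, and none of the 9 passed after injury in either subset. The median of this list was -0.09 in sham.

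Of the 14 transcription factors tied to Il10 in T cells, 10 were higher and 3 lower in CD44high sham (median log2 2.05), led by Rora (3.11, adjusted p = 7.61e-16, edgeR), Prdm1 (3.58, adjusted p = 4.43e-13) and Ikzf3 (2.10, adjusted p = 1.67e-12), and in burn 11 were higher and 3 lower. After injury Tbx21, the T-bet gene, fell in CD44high (log2 -1.20, SE 0.200, adjusted p = 0.00121), from 32.3 ± 1.69 to 14.1 ± 2.35 CPM (SD, n = 4 each). In CD44low Batf (log2 0.62, adjusted p = 0.00905), Maf (0.76, adjusted p = 0.0409) and E4f1 (0.36, adjusted p = 0.049) rose. Rora was the member of this list whose injury effect differed between subsets (log2 -0.64, adjusted p = 0.0426).

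Of the 18 cytotoxic granule genes, 13 were tested, 7 were higher and 2 lower in CD44high sham (median log2 1.07), and 8 were higher and 2 lower in burn. Gzmc (log2 2.58 in sham, adjusted p = 1.19e-07, edgeR) and Srgn, the granule proteoglycan serglycin (log2 1.07, adjusted p = 2.99e-07), followed Gzmb. Prf1, the perforin gene, fell after burn in CD44high Tregs, from 31.9 ± 6.76 to 15.9 ± 3.45 CPM (SD, n = 4 each; log2 -1.003, SE 0.218, adjusted p = 0.0111), and its injury effect differed between the subsets (log2 -1.42, SE 0.286, adjusted p = 0.0155). In CD44low it was at 24.2 ± 5.15 CPM in sham (n = 5) and 32.2 ± 8.12 CPM in burn (n = 6). Ctsc, whose protease activates granzymes (log2 0.61, adjusted p = 0.00355), and Fasl (log2 1.05, adjusted p = 0.0245) rose in CD44low burn.

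Of the 16 genes that handle latent TGF-beta, 10 were tested. Lrrc32, the gene of GARP, which holds latent TGF-beta on the Treg surface, was lower in CD44high, at 134 ± 19.4 CPM (SD, n = 4) against 482 ± 65.2 CPM (n = 5) in sham (log2 -1.85, adjusted p = 1.22e-08, edgeR). The activating integrin chain Itgb8 was higher (log2 1.42, adjusted p = 8.24e-06), as was the protease gene Mmp9 (log2 4.69, adjusted p = 3.81e-09). In all, 3 were higher and 1 lower in sham (median log2 0.30) and 4 higher and 1 lower in burn, while none of the 10 passed after injury in either subset.

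Of the 12 genes of the galectin list, 6 were tested, Lgals1 included. In CD44high sham 4 were higher and 1 lower (median log2 of the 6, 1.57). The lower 1 was Lgals3bp, the gene of a galectin-3-binding protein (log2 -0.63, adjusted p = 0.00531, edgeR). In burn 3 were higher and 0 lower. Lgals3, the galectin-3 gene, was at 163 ± 4.85 CPM (SD, n = 4) in CD44high sham against 1.64 ± 0.970 CPM in CD44low sham (n = 5; log2 6.59, adjusted p = 1.76e-15). Lgalsl was higher too (log2 2.48, adjusted p = 4.04e-05). Macrophages, whose markers were also higher in CD44high sham, express Lgals3 too, and their part in this difference was not tested. After burn Lgals3 rose in CD44low to 6.10 ± 1.47 CPM (n = 6; log2 1.86, adjusted p = 0.000402), and its injury effect differed between the subsets (log2 -2.40, SE 0.338, adjusted p = 0.000540). The macrophage marker Lyz2 rose in CD44low too, from 22.5 ± 6.62 to 54.2 ± 35.0 CPM (log2 1.27, adjusted p = 0.0301). The part of macrophages in these injury results of Lgals3 was not tested. Lgals8 rose in CD44low by a log2 of 0.35 (adjusted p = 0.0456). Of the 9 fibrinogen-related genes and FGL2 receptors, 5 were tested and 3 were higher in CD44high sham, Fgl2, Angptl2 (log2 2.48, adjusted p = 1.74e-09) and Angptl4 (log2 1.27, adjusted p = 0.00603). In burn 2 were higher and 0 lower, and Angptl4 did not pass (log2 -0.14, adjusted p = 0.774). The FGL2 receptor genes Fcgr2b and Fcgr3 were at 2.16 ± 1.25 and 0.820 ± 0.864 CPM in CD44high sham, and neither passed in any comparison.

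Of the 15 EGF receptor ligands and sheddase genes, 9 were tested, 4 were higher and none lower in CD44high sham, and 5 were higher and 1 lower in burn. The only call after injury was that of Areg itself. The iRhom gene Rhbdf2, which guides the sheddase ADAM17, was higher in CD44high sham (log2 1.20, adjusted p = 8.51e-07, edgeR), and Rhbdf1 had 77 counts in CD44high sham and 0 in CD44low sham, which allows up to 3 counts over that group. Erbb2, a receptor chain, was higher in CD44high in sham (log2 1.95, adjusted p = 0.0188, edgeR) and in burn (log2 3.49, adjusted p = 0.000352). Of the 14 opioid precursor, processing and receptor genes, 5 were tested and 3 were higher in CD44high sham. In burn 2 were higher and 0 lower. Pcsk1, a convertase that cuts such precursors, had 207 counts in CD44high sham, 251 in CD44high burn, 0 in CD44low sham and 10 in CD44low burn (adjusted p = 3.84e-07 between the sham groups). Cpe, the next enzyme, was at 25.9 ± 4.12 CPM (SD, n = 4) and 10.4 ± 4.43 CPM (n = 5) in sham (log2 1.33, adjusted p = 5.24e-05). The Cpe difference did not pass in burn (log2 0.44, adjusted p = 0.120). Of the 18 other tissue repair factors, 5 were tested and 4 were higher in CD44high sham, among them Metrnl (log2 5.93, adjusted p = 8.49e-08) and Pdgfb (log2 1.83, adjusted p = 6.12e-05). In burn 3 were higher and 0 lower. Ccn2 had 178 counts in CD44high sham and 0 in CD44low sham, and rose to 12 counts in CD44low burn (adjusted p = 0.0472).

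Genes whose log2 CPM followed each member most closely over the 19 libraries were found by Pearson's r, which here mostly follows the CD44 split that the libraries share. The nearest to Il10 were E2f1, Msrb3 and Il18rap (r = 0.969, 0.963 and 0.958), and the nearest to Ebi3 were its antisense gene Gm16712, Icos and Prr13 (0.990, 0.989 and 0.987). Fgl2 was followed by Rrm1, Incenp and Itgae (0.989, 0.987 and 0.987), and Gzmb by Gna15, Cd200r1 and Mad2l1 (0.983, 0.981 and 0.981). Areg was followed by Mlf1, Actg1 and Lig1 (0.963, 0.961 and 0.956), Penk by Gm16712, Cldnd1 and Map2k3 (0.986, 0.982 and 0.981) and Lgals1 by Glrx, S100a10 and Rora (0.994, 0.991 and 0.989). Tgfb1, the gene without a called CD44 difference, had Rarg, Anxa11 and Gatad2a (0.945, 0.924 and 0.877).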

How the data were processed

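Bulk RNA-seq was made from 19 Treg samples with SMART-Seq v4 cDNA. The authors deposited raw counts per gene, not normalized and with replicates kept apart, from the VIPER workflow. The submitters' processing notes name STAR 2.5 and bcl2fastq 2.18, and both mm9 and mm10 with no role, so the build is not settled here. Coordinates, exon lengths and promoters are from GENCODE and RefSeq on GRCm38.

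Columns were matched to samples by their labels, and 0 were left unused. DESeq2 1.42.0, limma 3.58.1 and edgeR 4.0.16 were run under R 4.3.3. Tables and figures were made under Python 3.11.15 with matplotlib 3.10.9. Genes were filtered with edgeR at a minimum count of 10, scaled by TMM (factors 0.970 to 1.04), fitted with 1 mean per group over all 19 libraries without covariates, and compared with the quasi-likelihood test of edgeR, two-sided. P-values were adjusted by Benjamini-Hochberg over 11464 genes, with a call at adjusted p under 0.05. CPM use TMM-scaled totals. The correlations used log2 CPM with a prior count of 2. Depths of 5582234 to 9433610 counts set the precision. Reads carry no molecular identifiers, so intervals and the floor of 3 counts cover counting error only. The fit was tested on simulated data.

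Replicates of a group differed by more than counting noise (chi-square per gene 4.96 to 41.3), so none were merged. Deviations from group means correlated at -0.120 to 0.167 between same-numbered libraries, which does not pair them. All 8 genes were named in all comparisons. From each pathway list, counts were given with the genes called after injury or in the interaction and the 3 of smallest p between subsets in sham or burn. The members and lists were chosen with earlier results of these data known, and no list was tested as a set. Alternatives were DESeq2, RLE factors, no filter, the compared groups alone, a replicate block, a 2-fold call, thinning to the smallest total, sets of the CD44low burn libraries, each library left out, unscaled totals and coding length.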

Additional observations from a re-analysis of the deposited data

Results flagged for a closer look

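Tgfb1 had a library that stood apart within its group: CD44high sham library 3 was at 168 CPM, while the other 3 libraries of that group lay at 148 to 150.0 CPM. Its gap to the nearest of them was 0.918 of the group's range, above Dixon's critical value of 0.829 for 4 samples. Chance gives about 1 such library in 20 groups, and 32 groups of a gene were examined with 1 found.

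The injury effect on Fgl2 differed between the subsets, by -1.29 on the log2 scale as CD44high minus CD44low (SE 0.259, adjusted p = 0.0155, edgeR's quasi-likelihood test), with all 4 CD44high burn libraries below all 4 CD44high sham libraries and the CD44low groups overlapping.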

How the results depend on the processing

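For the 8 genes in 5 comparisons, 28 of 40 results kept their direction and side of the threshold under all 28 or 29 alternatives, among them each of the 14 CD44 differences called, the fall of Fgl2, the rise of Ebi3 and the Fgl2 difference in injury effect. Of 1151 values, 18 turned sign, 13 lost and 11 gained a call. In CD44high, 1 gene rose instead of 0 (Penk) with the compared groups alone or the replicate block (log2 0.61, adjusted p = 0.0261), and between 1 and 2 fell when a library was left out. In CD44low, 1 to 3 rose when a library was left out (3 without burn 5_2, with Lgals1 added), and 1 with a 2-fold call. For the difference in injury effect, 3 genes passed with DESeq2, 2 without libraries 1_2, 4_2 and 5_2, 2 without 1, 2 and 5, and 1 to 2 when a library was left out. The cause was not tested. The replicate block changed no other call of the 8 genes. Over all genes in CD44low it left 218 higher and 222 lower.

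Sign changes were of uncalled values near 0. Tgfb1 between subsets in burn became 0.22 without 1_2, 4_2 and 5_2 and ranged from -0.13 to 0.04999 with a library left out. Tgfb1 in CD44low became 0.18 without 1, 2 and 5 (any 1 library left out, -0.16 to 0.0147), Fgl2 in CD44low 0.10 without 1_2, 4_2 and 5_2, and the Tgfb1 difference in injury effect 0.16 without 1_2, 4_2 and 5_2. The Penk difference became 0.12 with the replicate block, 0.0045 without 1, 2 and 5, 0.00395 with 1 and 1_2, and 5 and 5_2, summed and 0.0015 when thinned (any 1 library left out, -0.17 to 0.10).

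Over all genes in CD44high, 121 rose and 152 fell, against 195 and 282 with DESeq2, 278 and 323 with the compared groups alone, 269 and 312 without 1_2, 4_2 and 5_2, 199 and 277 with 1 and 1_2, and 5 and 5_2, summed, and 36 and 50 with a 2-fold call, and with 1 library left out 78 to 166 and 71 to 187. In CD44low 486 rose and 385 fell, against 858 and 890 without 1_2, 4_2 and 5_2, 303 and 142 without 1, 2 and 5, 211 and 252 with the compared groups alone and 82 and 61 with a 2-fold call, and 932 rose with DESeq2. With 1 library left out, 303 (without 1_2) to 1122 (without 5_2) rose and 175 (without sham 1) to 771 (without 5_2) fell. The difference in injury effect had 22 higher and 52 lower, against 58 and 157 with DESeq2, 151 and 163 without 1_2, 4_2 and 5_2, 39 and 97 without 1, 2 and 5, and 16 to 34 and 27 to 76 with 1 library left out. Between subsets, a 2-fold call left 1384 higher and 922 lower in sham and 1108 and 558 in burn, of 2837, 2443, 2307 and 1976. Depth limits Il10 and Areg in CD44low cells most.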
